A study of Mus musculus with 7 samples.

Results

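The miR-181 seed family on these mouse arrays was taken as every array probe whose target begins, after its first base, with the same 7 bases as the target of probe UC1005158, and 6 of 1874 probes met that rule. Bases 2 to 8 of a mature miRNA are its seed, the stretch that pairs with target messages. The target of each probe was read as the reverse complement of its printed sequence, without the 10 T at its end and a leading G. The rule used sequence alone and no measured value, though the family was chosen with earlier results of these data known. By sequence, 5 of the 6 probes matched a mouse mature miRNA in RefSeq (build GRCm38.p6): 1 each for miR-181a-5p, miR-181c-5p and miR-181d-5p, which they equal, and 2 for miR-181b-5p, which they share up to its last bases.

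MicroRNAs are short RNAs that load into Argonaute proteins and lower the stability and translation of messages that carry a match to their seed. The miR-181 family is abundant in thymocytes and falls as T cells mature, and miR-181a is known for lowering several phosphatases, among them Ptpn22, Dusp5, Dusp6 and Shp-2, that damp signalling from the T cell receptor. Members share a seed and so have overlapping predicted targets, but they are made from separate hairpins.

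The mature sequences from RefSeq are shown because all 4 share the seed, in capitals, and differ only behind it.
miR-181a-5p: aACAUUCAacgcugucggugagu
miR-181b-5p: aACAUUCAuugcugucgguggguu
miR-181c-5p: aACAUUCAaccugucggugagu
miR-181d-5p: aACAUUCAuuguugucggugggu
The target of the probe UC1005165, which is named here by its number only, is written in DNA letters as in the array files, with the seed in capitals.
UC1005165: cACATTCAttgctgtcggtggg

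Counting from 1 at the 5′ end, and in the DNA letters of the probes, miR-181b differed from miR-181a by A9T, C10T and A21G over the 23 bases that both probes hold. miR-181d differed from miR-181b by C12T only. Taking the base at position 11 out of the miR-181a target gave the miR-181c target. UC1005165 differed from the 22-base miR-181b probe (UC1005162) by A1C only, and the 2 miR-181b probes (UC1005162 and UC1005163) differed in length only, with targets of 22 and 23 bases. How far each probe also binds the other members was not tested, so the 6 probes are not 6 independent readings of the family.

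The members come from 3 pairs of neighbouring hairpins, given here in GRCm38.p6 coordinates. Mir181a-1 (chr1:137966455-137966541) and Mir181b-1 (chr1:137966639-137966718) lie on the plus strand 97 bases apart, with no other annotated gene over them. Mir181a-2 (chr2:38852735-38852810) and Mir181b-2 (chr2:38853830-38853918), also on the plus strand and 1019 bases apart, lie within the spans of the protein-coding gene Nr6a1 and the long non-coding RNA gene Nr6a1os. Mir181c (chr8:84178873-84178961) and Mir181d (chr8:84178716-84178787) lie on the minus strand 85 bases apart, with no other annotated gene over them. The mature miR-181a-5p is the same from both of its hairpins, as is miR-181b-5p, so the arrays do not separate the hairpins by these arms.

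The study measured small RNA in CD4 T cells of Balb/c mice aged 6 to 8 weeks whose DO11.10 T cell receptor is specific for a peptide of ovalbumin. Naive cells (2 arrays) were sorted as CD4+ D011.10+ CD25- CD44 low from DO11.10 Rag2+/+ mice. Activated cells were sorted as CD4+ D011.10+ CD44 high 5 days after CD4+ cells of DO11 Rag2-/- mice were transferred to WT Balb/c recipients (WT host, 2 arrays) or to sOVA recipients (sOVA host, 3 arrays). Each host had been given LPS-activated bone marrow-derived dendritic cells loaded with Ova peptide intravenously 24 h after the transfer. The titles name an OVA immunized host for the first and an sOVA immunized sOVA host for the second, so a difference in immunization cannot be told apart from the host. Rag2 genotype and sort gate differed between naive and activated cells and cannot be told apart from activation. Cells came from pooled spleens and lymph nodes, and the labels do not tie replicates to separate pools, so the p-values rest on a spread that could be technical. Fewer cells of a type and less RNA per cell cannot be told apart in such bulk samples.

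On each array, 309 to 467 of the 1874 probes were well above background and no spot was saturated. Levels are given as log2 signal relative to the array's 75th percentile, taken over the 253 probes detected on all 7 arrays, so 0 is that percentile and a difference of 1 is a doubling. The dimmest arrays were replicate 2 of the WT host and replicate 3 of the sOVA host, with percentile signals of 3591 and 2729, against 9281 to 15740 on the others. sOVA host replicate 3 also stood apart from its group. Over those 253 probes its log2 differences from sOVA host replicates 1 and 2 had SDs of 1.20 and 1.37, against 0.53 to 0.67 for the other replicate pairs. The members' changes from naive cells in the sOVA host are therefore given with and without it. Probes of the blood cell miRNAs miR-142a and miR-155 were detected on all 7 arrays (4 of 4). Their summed level was 3.35 and 3.07 on the naive arrays, 2.35 and 1.91 in the WT host, and 3.10, 2.56 and 1.23 in the sOVA host. The sum joins probes whose group means moved in opposite directions. For the miR-142a probes UC1005103, UC1005104 and UC1005105 the means were -0.04, 2.06 and 2.00 in naive cells. They were -1.37, 0.79 and 0.68 in the WT host and -1.93, 0.37 and 0.48 in the sOVA host. For the miR-155-5p probe (UC1005156) the means were -3.30 in naive cells, -0.67 in the WT host and 0.75 in the sOVA host. The marker miR-150-5p was absent from the RefSeq names used for matching, so whether a probe reads it was not examined.

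Tests were limma fits over all 7 arrays and 401 probes, those that 1 or more groups had detected on all of its arrays, with Benjamini-Hochberg adjustment over the 401 and a threshold of 0.05. All 6 members were tested. Detection on all 7 arrays held for 4 members. The probes of miR-181c-5p and UC1005165 were not well above background on sOVA host replicate 3.

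miR-181a-5p had the largest change within the family, a fall in the WT host. Its probe (UC1005158) had levels of 0.75 and 0.62 on the naive arrays, -2.94 and -2.38 in the WT host, and -0.47, -0.36 and -2.05 in the sOVA host. Both naive arrays lay above all others, both WT host arrays below all others, and sOVA host replicate 3 lay nearer to the WT host arrays than to its own group. Group means were 0.69 ± 0.09 (SD, n = 2), -2.66 ± 0.39 (SD, n = 2) and -0.96 ± 0.94 (SD, n = 3). Before scaling, the signal (mean of log2 over spots, taken back to the linear scale) was 19950 and 24260 on the naive arrays, 1212 and 690.5 in the WT host, and 7142, 8655 and 660.6 in the sOVA host.

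Against naive cells, the miR-181a-5p probe (UC1005158) was 10.2-fold lower in the WT host, a log2 change of -3.34 (SE 0.61, 95% interval -4.83 to -1.86, limma adjusted p = 0.0118). That change ranked 6 from the lowest among the 401 probes. Leaving out any 1 of the naive or WT host arrays, with the lone remaining array assumed to vary like the other groups, gave changes between -3.62 and -3.07 with adjusted p between 0.0681 and 0.117, none of them past the threshold. Within the rows of the slide the change was -3.69 in row 1 and -3.00 in row 2, each with 1 array a group.

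In the sOVA host the change of UC1005158 from naive was -1.64 (SE 0.56, 95% interval -3.00 to -0.29), which missed the threshold (limma adjusted p = 0.0708). Without sOVA host replicate 3 it was -1.11 and passed (limma adjusted p = 0.0241). With the slide row as a block it was -1.73 and passed as well (limma adjusted p = 0.046). Of 20 alternative settings, both of these included, it passed under 5 and missed the threshold under 15. Leaving out any 1 naive or sOVA host array gave changes between -1.95 and -1.11. All 3 sOVA host arrays lay below both naive arrays.

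Between the hosts, the miR-181a-5p probe (UC1005158) was higher on each sOVA host array than on each WT host array, by 1.70 in log2 (95% interval 0.35 to 3.05), a change that ranked 8 from the highest of 401. It did not pass the threshold with all arrays (limma adjusted p = 0.326), and 0% of the probes did. At an unadjusted p under 0.05 this comparison called 47 probes (11.7%), of the members this one only. Without sOVA host replicate 3 the difference was 2.24 and passed (limma adjusted p = 0.00504). Within slide rows it was 2.52 in row 1, with 2 sOVA host arrays and 1 WT host array, and 0.33 in row 2, which pairs the 2 dimmest arrays.

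The other arm of one miR-181a hairpin matched a probe by sequence. The miR-181a-1-3p sequence from RefSeq is shown because it is found in Mir181a-1 and not in Mir181a-2, and its seed, in capitals, differs from that of the family.
miR-181a-1-3p: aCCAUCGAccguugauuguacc
Its probe (UC1005159) had levels of -4.99 and -5.34 on the naive arrays, -8.89 and -7.92 in the WT host, and -6.12, -5.42 and -7.49 in the sOVA host. It was well above background on both naive arrays and sOVA host replicate 2, and on no other array. In the WT host it was at least 2.92-fold lower than in naive cells. This bound sets the naive mean against the mean, over the WT host arrays, of the lowest signal well above background or the probe's own signal, whichever was higher. It was 1.93-fold without WT host replicate 1 and 4.42-fold without WT host replicate 2. The limma adjusted p was 0.0235 with all arrays and 0.074 to 0.167 without any 1 naive or WT host array. The probe was tested only because both naive arrays, where it is high, detected it. In the sOVA host, where 1 of 3 arrays detected it, no fold is given. Of the 6 opposite-arm names of the miR-181 hairpins, miR-181a-1-3p was the only 1 matched to a probe. In RefSeq miR-181c-3p has the same seed as miR-181a-1-3p. How far UC1005159 also binds miR-181c-3p or miR-181a-2-3p was not tested. UC1005161, whose target is a 22-base run of the Mir181a-2 hairpin, was detected on no array. UC1005166, which shares a 21-base run with the mature miR-181c-3p, was detected on naive replicate 2 only. The Mir181c hairpin was not among the sequences compared.

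miR-181c-5p fell in both hosts. Its probe (UC1005164) had levels of -3.16 and -3.00 on the naive arrays, -4.85 and -4.81 in the WT host, and -4.23, -4.40 and -5.45 in the sOVA host, the last not well above background. Both naive arrays lay above all 5 arrays of activated cells, and the WT host arrays lay within the range of the sOVA host arrays. The probe was 3.37-fold lower in the WT host, a log2 change of -1.75 (SE 0.45, limma adjusted p = 0.0401). It was 3.06-fold lower in the sOVA host, a log2 change of -1.62 (SE 0.41, limma adjusted p = 0.0331), and -1.25 without sOVA host replicate 3 (limma adjusted p = 0.00846). Between the hosts the difference was 0.14 (95% interval -0.85 to 1.13, limma adjusted p = 0.903), and 0.51 without sOVA host replicate 3 (limma adjusted p = 0.154), and its sign depended on the arrays and the scaling. Leaving out any 1 naive or WT host array ended the call in the WT host (changes of -1.86 to -1.67, limma adjusted p 0.157 to 0.209), as did leaving out sOVA host replicate 2 (limma adjusted p = 0.0605). The call in the sOVA host ended without any 1 naive or WT host array or sOVA host replicate 2 (limma adjusted p 0.0575 to 0.211).

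For miR-181b-5p no change from naive passed the threshold with all arrays. The 23-base probe (UC1005163) had levels of -4.21 and -4.11 on the naive arrays, -5.17 and -4.40 in the WT host, and -3.15, -2.79 and -4.52 in the sOVA host. Both WT host arrays lay below both naive arrays, whereas sOVA host replicates 1 and 2 lay above every naive array and replicate 3 below. The log2 change from naive was -0.62 in the WT host (95% interval -2.11 to 0.86, limma adjusted p = 0.468) and 0.67 in the sOVA host (95% interval -0.68 to 2.02, limma adjusted p = 0.393).

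Without sOVA host replicate 3, the miR-181b-5p probe UC1005163 was higher in the sOVA host than in naive cells by 1.17 in log2 (limma adjusted p = 0.0356) and higher than in the WT host by 1.81 (limma adjusted p = 0.0182). With that array the difference between hosts was 1.30 (limma adjusted p = 0.427). Within slide row 1 the sOVA host stood 1.23 above naive, and within row 2, where sOVA host replicate 3 is its only array, -0.41 from it. Scaling to the 75th percentile over all probes turned the change in the sOVA host to -0.15, so its direction relative to naive cells depended on the scaling.

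The 22-base miR-181b-5p probe (UC1005162) and UC1005165 followed the same course. UC1005162 had levels of -4.46 and -4.38 in naive cells, -5.62 and -4.82 in the WT host, and -3.40, -3.00 and -4.93 in the sOVA host. UC1005165 had levels of -4.58 and -4.47, -5.77 and -4.92, and -3.42, -3.00 and -5.16 in the same order. Over the 7 arrays the 3 probes correlated with each other at r of 0.997 to 0.999, and they share all but 1 base of their first 22. Their changes of -0.80 and -0.82 in the WT host and 0.65 and 0.66 in the sOVA host did not pass the threshold (limma adjusted p 0.404 to 0.478). Without sOVA host replicate 3 both were higher in the sOVA host than in naive cells, UC1005162 by 1.21 (limma adjusted p = 0.0354) and UC1005165 by 1.30 (limma adjusted p = 0.0311).

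For miR-181d-5p no change passed the threshold with all arrays. Its probe (UC1005167) had levels of -5.37 and -5.15 on the naive arrays, -5.18 and -4.68 in the WT host, and -4.27, -4.05 and -4.86 in the sOVA host. All 3 sOVA host arrays lay above both naive arrays, while the WT host overlapped with both other groups. The log2 change was 0.33 in the WT host (95% interval -0.57 to 1.23, limma adjusted p = 0.529), with a sign that turned under 2 of the other scalings. In the sOVA host it was 0.87 (limma adjusted p = 0.103), and 1.08 without sOVA host replicate 3, which passed (limma adjusted p = 0.0243). With the 75th percentile taken over all probes it was 0.05 (limma adjusted p = 0.959). miR-181d and miR-181c come from neighbouring hairpins, and over the 7 arrays their probes correlated at r of -0.35. The miR-181d probe correlated with UC1005163 at r of 0.80, with UC1005162 and UC1005165 at 0.77, and with UC1005158 at -0.04. Its target differs from that of UC1005163 by 1 base, and binding of one member's miRNA by another's probe was not tested. These values describe few arrays that share their scaling.

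As counts, 2 of 6 members were called lower and 0 higher in the WT host against naive cells, where 20.2% of the 401 probes were called, 6.48% lower and 13.7% higher. In the sOVA host, 1 of 6 was called lower and 0 higher, where 23.2% of probes were called, 6.23% lower and 17.0% higher. The groups of arrays did not overlap for 5 of 6 members in the WT host, with 75.8% of all probes doing so, and for 3 of 6 in the sOVA host, with 62.3%. Between the hosts they did not overlap for 1 member, miR-181a-5p, with 23.7% of all probes. The median log2 change of the 6 members was -0.81 in the WT host and 0.66 in the sOVA host, where all 401 probes had medians of 0.24 and 0.11. Both comparisons share the naive arrays.

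Without sOVA host replicate 3 these counts moved in the sOVA host. All 6 members were then called against naive cells, miR-181a-5p and miR-181c-5p lower and the 2 miR-181b-5p probes, UC1005165 and miR-181d-5p higher, where 39.1% of 407 probes were called, 13.0% lower and 26.0% higher. Against the WT host 4 members were called, all higher, where 18.9% of probes were called, 11.8% higher and 7.13% lower. They were miR-181a-5p, both miR-181b-5p probes and UC1005165. In the WT host against naive cells, 2 members were called lower and 0 higher, where 45.2% of probes were called, 17.7% lower and 27.5% higher.

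The difference between 2 members on the same array does not depend on the scaling to the percentile, and its change between groups shows where members changed unequally. Its absolute size is not read here, since the probes may bind unequally. Between UC1005158 (miR-181a-5p) and UC1005163 (miR-181b-5p) it was 4.96 and 4.73 on the naive arrays, 2.23 and 2.02 in the WT host, and 2.69, 2.43 and 2.47 in the sOVA host. miR-181a-5p stood lower against miR-181b-5p on every array of activated cells than on either naive array, and sOVA host replicate 3 lay within its group here. Against naive cells it changed by -2.72 in the WT host (exact two-sided permutation p = 0.333, the smallest that 2 arrays against 2 allow) and by -2.32 in the sOVA host (exact two-sided permutation p = 0.1, the smallest that 3 against 2 allow).

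Between UC1005158 (miR-181a-5p) and UC1005164 (miR-181c-5p) the difference was 3.91 and 3.62 in naive cells, 1.92 and 2.43 in the WT host, and 3.76, 4.04 and 3.40 in the sOVA host. The sOVA host overlapped with naive cells in it, with a change of -0.03 (exact two-sided permutation p = 1). In the WT host the change of the difference was -1.59 (exact two-sided permutation p = 0.333). The 2 hosts did not overlap in this difference, which was 1.56 higher in the sOVA host (exact two-sided permutation p = 0.1).

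Between UC1005164 (miR-181c-5p) and UC1005163 (miR-181b-5p) the difference was 1.05 and 1.11 in naive cells, 0.31 and -0.41 in the WT host, and -1.07, -1.61 and -0.93 in the sOVA host. The 3 groups did not overlap in it, and it changed by -2.29 from naive cells to the sOVA host (exact two-sided permutation p = 0.1). Of 27 such tests, over 9 pairs of members and 3 comparisons, the lowest Benjamini-Hochberg adjusted p was 0.338, so none passed, and at these numbers of arrays none could.

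Other miRNAs known to change in T cells are given for comparison, in lists chosen with earlier results of these data known. Of a list of 19 miRNAs raised by T cell activation, 28 of 29 probes were tested, and some miRNAs count by more than 1 probe. In the WT host 14 rose and 0 fell, where 13.7% of all 401 tested probes were called higher and 6.48% lower. In the sOVA host 17 rose and 0 fell, where 17.0% were called higher and 6.23% lower. Without sOVA host replicate 3, 18 rose in the sOVA host, where 26.0% of all tested probes were called higher. Of the probes that rose with all arrays, 7 in the WT host and 6 in the sOVA host were not detected on every naive array. They were probes of miR-182, miR-183, miR-96 and miR-212. They were tested only through 1 or both activated groups, where they are high, and the count is shaped by that filter. Without any 1 array of the groups compared, 6 to 11 rose in the WT host and 6 to 18 in the sOVA host, the lowest counts without a naive array. The list's median log2 change was 1.88 in the WT host and 1.64 in the sOVA host, where all 401 probes had medians of 0.24 and 0.11. Its 3 probes with the highest mean level were those of miR-21a-5p, miR-19b-3p and miR-92a-3p. miR-21a-5p (UC1004818), which rises in activated T cells, had a log2 change of 3.37 in the WT host (limma adjusted p = 0.00138) and 2.84 in the sOVA host (limma adjusted p = 0.00187), and passed without any 1 array. miR-19b-3p (UC1004801) and miR-92a-3p (UC1004978) had changes of -0.27 and -0.35 in the WT host and -0.74 and -0.37 in the sOVA host. Without sOVA host replicate 3 those in the sOVA host were -0.59 and -0.53. None of these changes passed the threshold.

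Of 25 miRNAs known as high in naive T cells, 21 were matched to a probe, and 31 of 32 probes were tested. The names miR-150-5p, miR-30b-5p, miR-30d-5p and miR-151-5p were absent from the RefSeq names used for matching. Whether the arrays hold probes for them was not examined. In the WT host 5 fell and 0 rose, where 6.48% of all 401 tested probes were called lower and 13.7% higher. In the sOVA host 4 fell and 0 rose, where 6.23% were called lower and 17.0% higher. Without sOVA host replicate 3, 9 fell in the sOVA host, where 13.0% of all tested probes were called lower. In that fit 17 fell in the WT host, where 17.7% were called lower. The filter shaped these counts as well, since 4 of the 5 in the WT host and 2 of the 4 in the sOVA host were not detected on every array of that host and were tested through groups where they are higher. Without any 1 naive or WT host array, 1 fell in the WT host, and in the sOVA host as few as 1 fell without an array of the groups compared. The list's median log2 change was -1.03 in the WT host and -1.13 in the sOVA host, where all 401 probes had medians of 0.24 and 0.11. Its 3 probes with the highest mean level did not pass in either host. miR-29a-3p (UC1004861) had changes of -1.81 and -1.75 in the WT and the sOVA host (limma adjusted p = 0.0843 and 0.0632), let-7a-5p (UC1004682) of -0.61 and -0.83, and let-7f-5p (UC1004697) of -0.32 and -0.65. Without sOVA host replicate 3 miR-29a-3p passed in both, with changes of -1.82 and -1.27 (limma adjusted p = 0.0101 and 0.0388), and let-7a-5p and let-7f-5p did not, with -0.62 and -0.38 in the sOVA host. Neither list had a call between the hosts with all arrays, where 0% of all tested probes were called. Without sOVA host replicate 3, 3 probes of the first list were higher in the sOVA host. Of the second list, 7 were higher and 1 lower. In that fit 11.8% of all tested probes were called higher and 7.13% lower.

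Markers of other cells moved with some of these groups. Both probes of the myeloid miRNA miR-223-3p were called lower in both hosts. They were tested only because both naive arrays, where they are high, detected them; 1 of 2 WT host arrays detected each, so the size of the fall is not given. The calls in the WT host ended without any 1 naive or WT host array, and those in the sOVA host without either naive array. The call of UC1005307 in the sOVA host also ended without either WT host array or sOVA host replicate 2, both of its calls ended with normexp background, and no call of either probe held with no filter on dim probes. Their summed level ranged from -2.59 to -2.38 on the naive arrays, from -5.70 to -5.21 in the WT host and from -6.11 to -4.36 in the sOVA host. The summed level of 3 erythroid probes (miR-451a and miR-144-3p) ranged from -1.13 to -0.22 on the naive arrays, from -2.61 to -1.06 in the WT host and from -3.38 to 1.67 in the sOVA host, where replicate 3 was the highest. Of 9 epithelial probes (the miR-200 family, miR-141, miR-429 and miR-205), 5 were tested. Of these, 2 were called lower in the WT host and 1 in the sOVA host, where 6.48% and 6.23% of all 401 probes were. All of these calls were of probes not detected on every array of that host. The probe of miR-205-5p (UC1005255), not tested and chosen after its values were seen, was detected on sOVA host replicates 1 and 2 only, at -4.87 and -4.08. The summed level of the 9 ranged from -3.50 to -3.38 in naive cells, from -4.20 to -4.17 in the WT host and from -3.87 to -2.92 in the sOVA host. The 3 probes of the endothelial miRNA miR-126a-3p were detected on naive replicate 2 only. Their levels were -6.32 to -6.13 there and -5.95 to -5.78 on sOVA host replicate 3. The lowest level of a detected probe was -8.27 on naive replicate 2 and -5.20 on sOVA host replicate 3. The muscle miRNA miR-206-3p and the neural miRNA miR-9-5p were detected on no array. Other marker names were absent from the RefSeq names used for matching, so whether probes read them was not examined. They were miR-122-5p (liver), miR-143-3p and miR-145a-5p (stromal), miR-1a-3p and miR-133a-3p (muscle) and miR-124-3p (neural). The part of such other cells in the levels of the miR-181 probes was not tested.

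The 5 probes most like miR-181a-5p across the arrays were chosen by Pearson's r with UC1005158 over the 7 arrays, among 249 probes detected on all of them that share no seed or target with the family. In order they were UC1005706 (r = 0.92), UC1005704 (r = 0.90), UC1004884 (r = 0.89), UC1004842 (r = 0.88) and UC1004845 (r = 0.88), with rank correlations of 0.82 to 0.86. UC1004842 reads miR-26a-5p. UC1004845 shares the seed of miR-26a-5p and miR-26b-5p, and UC1004884 that of miR-30a-5p, miR-30c-5p, miR-30e-5p and miR-384-5p. Of the 5, UC1004884 alone passed the threshold with all arrays, with a log2 change of -2.19 in the WT host (limma adjusted p = 0.0116) and -1.78 in the sOVA host (limma adjusted p = 0.0212). Neither call held without either naive array or with no filter on dim probes, and that in the WT host was also lost without WT host replicate 2 (limma adjusted p = 0.0876). miR-26a-5p had changes of -2.18 and -1.49 (limma adjusted p = 0.114 and 0.191). All 5 passed in the WT host without sOVA host replicate 3, at -2.20 to -1.52 (limma adjusted p 0.00219 to 0.0043). In the sOVA host UC1004884 (-1.53) and UC1004845 (-0.93) then passed, and miR-26a-5p (-0.72) did not. Between the hosts UC1005704, UC1005706 and UC1004842 passed in that fit, higher in the sOVA host by 1.55, 1.12 and 1.47 (limma adjusted p 0.00901 to 0.0342). Of all 407 probes tested in that fit, 17.7% were called lower in the WT host and 13.0% lower in the sOVA host, against naive cells. Between the hosts 11.8% were called higher in the sOVA host. The 5 were picked on these same arrays for following UC1005158, so their calls give no separate support. The arrays share their scaling and fall into 3 groups, so these values describe likeness and no more.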

How the data were processed

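Spot intensity on a linear scale (the processed signal) was used as deposited in the scanner files; per the file headers it is background-subtracted, with no normalization across arrays. Those headers name Feature Extraction 9.5.1.1, and the submitters' processing notes name version 10.6. RNA (250 ng) was labelled with Cy3, per the labels' protocols. Each probe had 7 spots. Control spots and outlier spots were left out, log2 spot values were averaged, and the 75th percentile of each array was subtracted. A probe was detected where 50% or more of its spots were well above background. Each probe was fitted by itself with limma 3.58.1 in R 4.3.3 (lmFit, eBayes, group means), and the fit was tested on simulated data.

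By sequence, 613 of 1874 probes matched a mature miRNA of RefSeq. The members and lists were chosen with earlier results of these data known. Named probes are all members, the 5 most alike to UC1005158 and up to 3 with the highest mean level per list. The deposited value table was not used, as none of its rows matched a member. The small number of arrays limits the precision. The alternatives tried cover scaling, background, filters, blocks and arrays left out.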

Additional observations from a re-analysis of the deposited data

How the results depend on the processing

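With 2 or 3 arrays a group, single arrays moved many calls. Every alternative kept miR-181a-5p lower than naive in the WT host, with log2 changes of -3.86 to -3.07, but 5 of 20 put its adjusted p above the threshold: the 4 fits without a naive or WT host array, and no filter on dim probes (limma adjusted p = 0.0645). For miR-181c-5p 9 of 19 ended the call in the WT host and 10 of 19 that in the sOVA host, with no change of direction.

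Calls of all probes moved with the settings as well and are counted below. Of the 6 members, 2 were called in the WT host against naive cells. That became 1 with the percentile over all probes, with all spots required for detection, with only the 4 members detected on all 7 arrays or with quantile normalization, 0 with no filter, and 4 without both dim arrays, with a range of 0 to 2 when any 1 array was left out. In the sOVA host against naive cells 1 was called. That became 2 with the percentile over all probes or the slide row as a block. It became 0 with all spots required, detection on all 7 arrays, scaling to the median, no filter, only the 2 groups in the fit or quantile normalization, and 6 without both dim arrays. Leaving out 1 array gave 0 to 6, the 6 without sOVA host replicate 3. Between the hosts 0 became 4 without both dim arrays, and 0 to 4 without any 1 array.

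Of all probes, 81 were called in the WT host against naive cells: 49 with the percentile over all probes, 29 with detection on all 7 arrays, 22 with no filter, 51 with normexp background, 166 with only the 2 groups, 130 with the slide row as a block, 140 without both dim arrays and 17 to 184 without any 1 array. Against naive cells in the sOVA host 93 were called: 41 with detection on all 7 arrays, 34 with no filter, 157 with the slide row, 188 without both dim arrays and 15 to 159 without any 1 array. Between the hosts 0 became 54 without both dim arrays and 0 to 77 without any 1 array. The number of probes tested was 401, but 253 with detection on all 7 arrays, 1874 with no filter and 432 without both dim arrays. It was 390 with all spots required and 401 to 487 without 1 array. Counts under these settings are therefore not directly comparable. The causes were not tested.

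Scaling to the percentile over all probes shifted the median change of all probes from 0.24 to -0.28 in the WT host and from 0.11 to -0.71 in the sOVA host, and the split of higher to lower calls from 55 and 26 to 25 and 24, and from 68 and 25 to 29 and 49. The split was 43 and 31, and 45 and 24, with scaling to the median, and 44 and 35 in the sOVA host with quantile normalization. Under the percentile over all probes, UC1005162, UC1005163 and UC1005165 in the sOVA host turned to -0.17, -0.15 and -0.15 against naive cells, UC1005164 between the hosts to -0.16 and UC1005167 in the WT host to -0.18. Quantile normalization turned the last to -0.082, and miR-19b-3p (UC1004801) in the WT host to 0.094. The rise of miR-21a-5p in the sOVA host was 2.02 with the percentile over all probes (limma adjusted p = 0.0566). UC1005164 between the hosts was -0.11 without sOVA host replicate 1, -0.0038 without replicate 2 and 0.51 without replicate 3. The deposited value table gave no value for a member and was not run.

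The replicate numbers in the titles were not taken as pairing. Deviations of replicate 1 from the group means correlated at 0.32 between naive cells and the WT host. They correlated at -0.08 between naive cells and the sOVA host and at -0.27 between the hosts. These values rest on 1 array a group, and the sOVA host mean includes the outlying replicate 3, so they cannot show or exclude pairing. A fit with the replicate number as a block gives sOVA host replicate 3 a block of its own. Against naive cells it called 165 of 401 probes and 2 of 6 members in the WT host. In the sOVA host it called 131 of 401 probes and 6 of 6 members against naive cells. Between the hosts it called 36 of 401 probes and 4 of 6 members.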
